A study of Mus musculus with 40 samples.

Results

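Among the 10 kidneys of mice on the standard diet (SD), 3 had a far higher level of Fos than the rest, and these activated kidneys are described here with the genes that went with them. The 3 libraries were selected on their CPM of Fos (counts scaled to a common total count per library), so the Fos values are a description of the choice and not a finding. They are the EC-EGFR-KO replicates a8 and a9 and the EC-EGFR-WT replicate a17, that is 3 of 10 SD kidneys and 3 of 40 libraries in the series. The other 7 SD kidneys are the EC-EGFR-KO replicates a6, a7 and a10 and the EC-EGFR-WT replicates a16, a18, a19 and a20.

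EC-EGFR-KO mice carried floxed Egfr alleles and a Cre recombinase driven by the Tek (Tie2) promoter, which is active in endothelium and also in blood cell lineages. The EC-EGFR-WT controls carried the Tek-cre transgene without loxP sites. The SD provided 10% of energy as fat and the high fat diet (HFD) 60%, given for 18 weeks from an age of 6 weeks, with 5 mice per genotype and diet. All mice were anaesthetised with isoflurane and killed by cervical dislocation, pieces of kidney and aorta were snap frozen, and poly(A) RNA was sequenced. The sources used here name neither the sex of the mice nor the hour at which tissue was taken.

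Immediate-early genes are switched on within minutes of a stimulus without new protein synthesis. Many encode transcription factors such as the FOS, JUN, EGR and NR4A families, and others encode phosphatases, RNA-binding proteins and inhibitors that limit the response. Growth factors acting through the EGF receptor, ischaemia, mechanical strain and tissue handling are all known to induce them in kidney. Secondary genes, among them cytokines and cytoskeletal genes, follow.

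The 3 activated kidneys had between 21845504 and 24056057 counts on genes and the other 7 between 19811155 and 31369285, so the depths overlapped. Marker genes of the nephron were present in all 10: the summed level of 9 proximal tubule markers was 9372 to 11565 FPM in the activated kidneys and 10818 to 12255 FPM in the others, and 5 thick limb markers summed to 2986 to 4338 and 2633 to 4205 FPM. FPM stands for the same unit with the library size scaled by TMM. Egfr had a CPM of 47.3 to 63.8 in the activated and 44.8 to 59.2 in the other SD kidneys, with no separation. The deletion was directed to endothelium and blood cells, while whole kidney was measured, so Egfr does not check the genotype labels here.

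Fos (ENSMUSG00000021250, chromosome 12, 85473890 to 85477273 of GRCm38) encodes a subunit of the AP-1 transcription factor. Its CPM was 82 in a8, 90.2 in a9 and 75.3 in a17. The other 7 SD kidneys had 0.319 to 1.85, with a median of 1.44. The library nearest below the chosen ones therefore stood at 1.85 and the lowest chosen one at 75.3. The 10 HFD kidneys had 0.84 to 7.67, also below all 3. In the 20 aortas the CPM of Fos was 62.7 to 4098, so the aortic levels reached and exceeded those of the activated kidneys.

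Egr1, an early growth response zinc finger factor, was at 822 FPM in a8, 598 in a9 and 737 in a17. The other 7 SD kidneys had 1.59, 8.75 and 10.6 FPM as lowest, median and highest value. The groups were separated by a wide gap, and the log2 difference with genotype as covariate was 6.71 (SE 0.49). No test is attached to this or any other difference between the 3 and the 7, because the choice of libraries used the same contrast.

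A gene was called higher or lower when its fold difference exceeded 1.5 and every activated kidney lay above, or below, every other SD kidney. Of 15146 genes tested besides Fos, 371 were called higher (2.45%) and 166 lower (1.10%). These shares are the background for the counts of members, and nothing is read from them since the libraries were chosen by an immediate-early gene. A list of 66 immediate-early genes gave 57 tested members besides Fos, of which 49 were called higher and 0 lower. The median log2 difference was 2.02 over the 57 members and -0.02 over all genes.

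**Figure D1:**
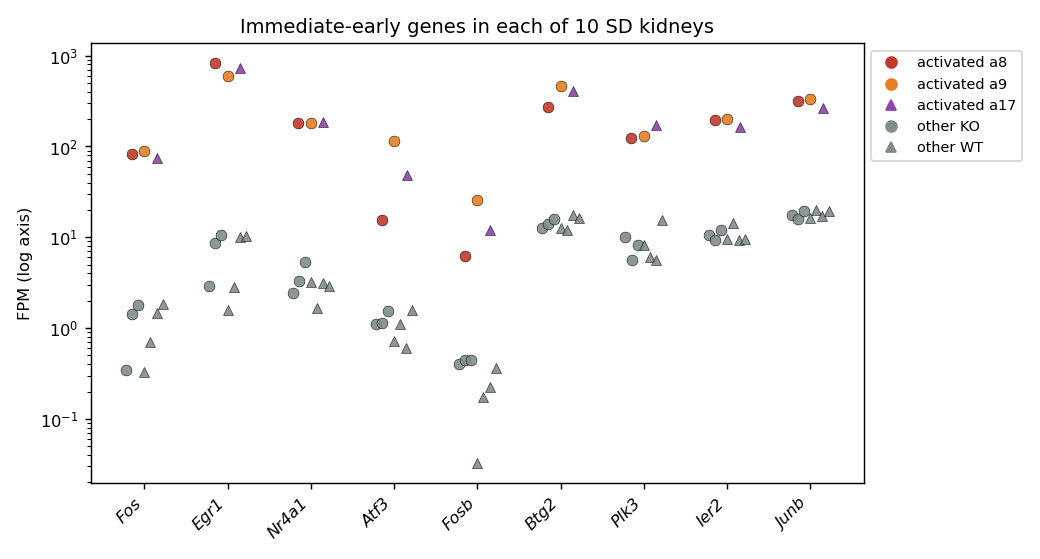
FPM on a log axis of Fos and the 8 called immediate-early genes with the largest log2 difference in each of the 10 SD kidneys. Coloured symbols are a8, a9 and a17, grey symbols the other 7, circles EC-EGFR-KO and triangles EC-EGFR-WT. For Nr4a1 the 3 activated kidneys lie between 182 and 186 FPM, while for Atf3 they spread from 15.6 to 115 FPM.

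Among transcription factors, Nr4a1, an orphan nuclear receptor, had 183, 182 and 186 FPM in a8, a9 and a17 and 1.67 to 5.28 FPM in the others (log2 difference 5.82, SE 0.20). The 3 values were nearly the same. Atf3, a stress-induced repressor of the ATF/CREB family, had 15.6, 115 and 48.5 FPM against 0.598 to 1.58 (5.66, SE 0.49). Fosb, the FOS relative, had 6.2, 25.5 and 12 FPM against 0.0325 to 0.446 (5.50, SE 0.44). For both of these genes a8 was the lowest and a9 the highest of the 3, and the groups did not overlap.

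Junb, an AP-1 partner of FOS, had 318, 330 and 267 FPM in a8, a9 and a17 and 16 to 20.2 FPM in the other 7 (log2 difference 4.07, SE 0.10). Ier2, a short nuclear immediate-early protein, had 197, 200 and 162 FPM against 9.26 to 14.5 (4.11, SE 0.14). These genes were as high in a8 as in a9. Junb shares exonic positions with Prdx2, and the strand setting of the counting is not named, so part of its reads could belong to that neighbour.

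Outside the transcription factors, Btg2, an antiproliferative regulator of mRNA decay, had 273, 466 and 403 FPM against 12.1 to 17.7 (log2 difference 4.74, SE 0.16). Plk3, a stress-responsive kinase, had 125, 132 and 173 FPM against 5.59 to 15.3 (4.13, SE 0.26). All 3 activated kidneys were far above the others for both genes. Plk3 overlaps exons of Tctex1d4.

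The remaining 41 called immediate-early genes had log2 differences from 0.74 (Ier5l) to 3.99 (Ccn1, a matricellular protein). They included the RNA-destabilising protein Zfp36 (3.63), Jun (3.27), the EGF receptor ligand Hbegf (3.09), the cytokine signalling inhibitor Socs3 (2.67), Myc (2.61), the clock gene Per1 (2.46), the dual-specificity phosphatase Dusp1 (1.88) and the EGF receptor inhibitor Errfi1 (1.33). The EGF receptor thus had both a ligand and a feedback inhibitor among the genes that were higher. Tested members that were not called were Tiparp, Klf4, Ccn2, Btg1, Klf2, Nfil3, Homer1 and Crem, with log2 differences from -0.15 (Klf2) to 0.99 (Ccn2).

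A further 8 members were not tested since they did not reach the filter on low counts, which was set for genotype groups of 5 libraries. Egr2, a further EGR factor, had 226, 402 and 537 counts in a8, a9 and a17 and 0 to 8 in the other 7. Nr4a3 had 72, 361 and 142 counts against 1 to 10, and Ptgs2, the inducible cyclooxygenase, 27, 149 and 51 against 0 to 19. Egr3 had 42, 68 and 57 counts against 0 to 10. These 4 genes thus also separated the groups, whereas Fosl1, Egr4 and Npas4 had at most 7 counts in any SD kidney. Csrnp1 is at 0 counts in every kidney and could not be judged.

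The stretches before the starts of 4 genes are shown, with Fos because it chose the libraries. Btg2 among the immediate-early genes, Srf among the cytoskeletal genes and Cxcl1 among the cytokines were each picked to show a motif. Their matches therefore follow from the choice, and these genes are not given as typical of their groups. The 250 bases upstream are from RefSeq (GRCm38.p6), 5′ to 3′ on the gene's strand, at chr12:85473640-85473889 (+), chr1:134079156-134079405 (-), chr17:46556163-46556412 (-) and chr5:90890995-90891244 (+). Capitals mark matches, on either strand, to the cAMP response element TGACGTCA, the AP-1 site TGANTCA, the CArG box bound by SRF, and the NF-kB site.
Fos: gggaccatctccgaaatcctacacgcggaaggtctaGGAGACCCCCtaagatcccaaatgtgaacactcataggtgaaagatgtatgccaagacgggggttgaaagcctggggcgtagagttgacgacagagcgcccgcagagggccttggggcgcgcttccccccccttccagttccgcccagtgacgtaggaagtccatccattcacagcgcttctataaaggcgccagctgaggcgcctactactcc
Btg2: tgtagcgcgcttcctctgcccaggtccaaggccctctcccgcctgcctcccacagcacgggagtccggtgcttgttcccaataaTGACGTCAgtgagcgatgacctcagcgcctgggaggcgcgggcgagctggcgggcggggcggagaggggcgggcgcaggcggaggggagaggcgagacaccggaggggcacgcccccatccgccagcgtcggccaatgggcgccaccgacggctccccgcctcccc
Srf: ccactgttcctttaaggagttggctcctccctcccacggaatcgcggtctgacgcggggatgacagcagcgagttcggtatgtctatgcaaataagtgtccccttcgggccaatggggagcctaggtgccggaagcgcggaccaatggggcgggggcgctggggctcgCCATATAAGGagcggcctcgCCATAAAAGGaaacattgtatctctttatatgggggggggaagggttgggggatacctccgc
Cxcl1: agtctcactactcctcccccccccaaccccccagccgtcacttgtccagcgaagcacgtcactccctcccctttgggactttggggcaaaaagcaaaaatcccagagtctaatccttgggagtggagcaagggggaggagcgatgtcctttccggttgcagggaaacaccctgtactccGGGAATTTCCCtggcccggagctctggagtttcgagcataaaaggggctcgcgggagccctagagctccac

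Btg2 held 1 match to the cAMP response element, Srf 2 CArG boxes, and Cxcl1 an NF-kB match that reads on both strands and overlaps itself. In Fos the only match within the 250 bases was to the NF-kB letters. Sites farther upstream, or with letters that differ from these patterns, would not be marked, so the lack of a match does not show that a site is absent. In the 300 bases from 250 before to 50 after the start, the cAMP response element was found for 2.03%, the AP-1 site for 8.97%, the CArG box for 1.81% and the NF-kB site for 5.14% of the 27025 genes in the RefSeq table. Only 37 of the 50 immediate-early genes (with Fos) had a window, fewer than the 80% set as minimum, so shares over the gene groups are void and are not given. A match of letters is a description of the sequence and not evidence of binding.

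Besides the immediate-early genes, 322 genes were called higher and 166 lower among 15089 tested. With a mean of at least 5 FPM in the higher group there were 211 and 43, and with a fold over 2 there were 160 and 59. Without a8, where only a9 and a17 had to be separated from the others, 544 were higher and 413 lower, and without a9 the lower genes were 283. Genes seen in the activated kidneys alone, such as Egr2, did not pass the filter on low counts, so these counts and the ranking do not cover such genes. Among the 12 tested genes with the largest differences upward and a mean of at least 5 FPM in the activated kidneys were Il1b, Cxcl1, S100a9, Lif, Adamts4, Gdf15, Ankrd1, Gem, Gpr132, Rcan1 and Bdkrb2. They comprise cytokines and chemokines, a neutrophil protein, a matrix protease, a calcineurin regulator and a kinin receptor.

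**Figure D2:**
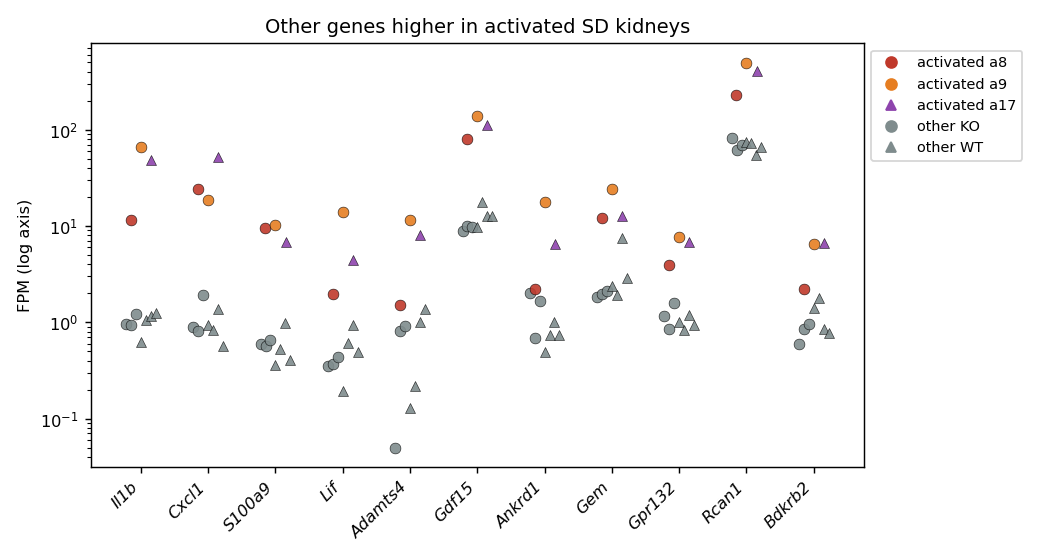
FPM on a log axis of 11 of the 12 genes outside the immediate-early lists with the largest log2 differences upward and at least 5 FPM in the activated kidneys, in each of the 10 SD kidneys, with the symbols of the plot of immediate-early genes. In 9 of the 11 genes a9 is the highest and in 9 of 11 a8 is the lowest of the 3 activated kidneys.

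Il1b (ENSMUSG00000027398, chromosome 2, 129364570 to 129371139), which encodes the inflammatory cytokine interleukin-1 beta, had 11.6, 65.6 and 48.9 FPM in a8, a9 and a17. The other 7 had 0.617, 1.05 and 1.26 FPM as lowest, median and highest value, and the log2 difference was 5.39 (SE 0.42). Its exons overlap the antisense gene Il1bos. The groups stayed apart by a wide gap even for a8, the lowest of the 3.

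Cxcl1, a neutrophil-attracting chemokine, had 24.1, 18.5 and 51.6 FPM against at most 1.94 (log2 difference 4.91, SE 0.33). Here a17 was the highest. Lif, a cytokine of the interleukin-6 family, had 1.96, 14.1 and 4.4 FPM against 0.195 to 0.934 (3.77, SE 0.57), and without a9 its log2 difference was 2.71. Gdf15, a stress-induced member of the TGF-beta family, had 80.7, 139 and 113 FPM against 8.88 to 17.9 (3.35, SE 0.19). Gdf15 was at least 80.7 FPM in each of the 3 kidneys, whereas Lif was far higher in a9 than in a8 and a17.

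Rcan1, an inhibitor of calcineurin, had 227, 497 and 407 FPM in a8, a9 and a17 against 54.1 to 81.5 (log2 difference 2.45, SE 0.19). Ankrd1, a target of mechanical and YAP signalling, had 2.24, 17.9 and 6.48 FPM against 0.487 to 2, so that a8 lay just above the highest of the other kidneys. The remaining named genes were Adamts4 (3.48, SE 0.69), which shares exonic positions with another gene, the small GTPase Gem (2.65, SE 0.43), the lipid-sensing receptor Gpr132 (2.49, SE 0.24) and the kinin receptor Bdkrb2 (2.43, SE 0.34).

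Of 19 cytokine and NF-kB target genes, 11 were tested and 9 called higher, which are 8 of 10 besides the immediate-early gene Nfkbiz. The median log2 difference of those 10 was 2.15, beside -0.02 over all genes. Ccl2, a monocyte chemokine, had 1.64, 8.58 and 4.11 FPM against 0.26 to 0.704. The other called members were Il1b, Cxcl1, Lif, Cxcl10, Tnfaip3, Nfkbia and the adhesion molecule Vcam1 (0.86, SE 0.24). Nfkbia and Tnfaip3, which inhibit NF-kB signalling, were thus higher together with the cytokines, while the inhibitor Nfkbie was not among the called members.

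Of the 16 feedback regulators of MAP kinase signalling all were tested and 10 were called higher, among them 6 of the 12 that are not immediate-early genes: Spry1, Spry2, Spry4, Dusp4, Dusp6 and Dusp8. The 12 had a median log2 difference of 1.06. Dusp8, a phosphatase for JNK and p38, had 6.2, 16.9 and 11.9 FPM against 1.82 to 3.13 (2.21, SE 0.25). Of 4 tested EGF receptor ligands Hbegf was called, and the median over the other 3 was 0.08.

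Cytoskeletal and SRF target genes gave 8 called of 12 tested, 7 of 10 without Ccn1 and Ccn2. Actg1, cytoplasmic gamma-actin, had 1125, 1909 and 1539 FPM against 577 to 773 (log2 difference 1.19, SE 0.14). Srf itself, the factor that binds CArG boxes, had 38.9, 72.7 and 53.4 FPM against 21 to 27.6 (1.10, SE 0.16). The summed level of the list was 2461, 3919 and 3114 FPM in a8, a9 and a17 and 1236 to 1600 in the other kidneys, again with a8 lowest of the 3. Ankrd1, Actb, Zyx, Cnn2 and Tpm4 were the other called members. Among the genes named so far and below, Zfp36, Jun, Dusp1, Bhlhe40, Dusp8, Actg1, Thbs1, Vcam1, Fdps, 9330151L19Rik, AI480526 and Acrbp also share exonic positions with other genes.

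Genes of coagulation and vascular injury gave 5 called of 8 tested, with a median of 1.34, among them Thbs1, F3, Plaur and the protease gene Adamts1. Thbs1, thrombospondin-1, had 56.3, 113 and 92.2 FPM against 25.7 to 42.1, a 2.64-fold difference. F3, tissue factor, had 28, 117 and 48.5 FPM against 16.6 to 27.5, so that a8 barely exceeded the others and the log2 difference of 1.43 fell to 0.70 without a9. Plaur, the urokinase receptor, had 5.15, 20.1 and 7.41 FPM against 1.89 to 4.01, and its log2 difference of 1.52 was 0.86 without a9. For these 2 genes a9 was more than 2 times as high as a8 and a17.

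For other stress programmes the counts were smaller, beside 2.45% called higher over all genes. The integrated stress response had 4 called of 13 (Ddit3, 1.65, SE 0.22, which shares exons with Mars, and Xbp1, 1.01, Ddit4, 0.97, and Atf4, 0.65), and glucocorticoid-responsive genes had 5 of 10, 3 of 8 without immediate-early genes (Sgk1, 1.23, SE 0.31, Mt1, 1.21, SE 0.25, and Ddit4). Among 11 tested heat shock genes only Dnajb4 was called (1.16, SE 0.11), and among 14 hypoxia genes only Ddit4. Of 12 p53 targets 3 were called, Btg2, Plk2 and Pmaip1 (1.13, SE 0.12). Of 18 clock genes 2 were called, Per1 and Bhlhe40, both immediate-early genes, and the median over the other 15 was -0.02. Fdps and Insig1 were the called members of 10 cholesterol synthesis genes, and H3f3b (1.19, SE 0.09) and H1f2 (0.91, SE 0.17) those of 7 histone genes. Of 9 CREB and gluconeogenesis genes the 2 called were the immediate-early Nr4a1 and Sik1, and none of 5 osmotic response genes was called. Of 11 tested tubular injury genes Vcam1 alone was called, while 9 had a positive difference (median 0.60). The list summed to 961 to 1084 FPM in the activated and 735 to 942 FPM in the other kidneys, so the sums did not overlap.

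Among cell type markers, those of neutrophils moved with the activation. S100a9 had 9.58, 10.2 and 6.82 FPM in a8, a9 and a17 and 0.357 to 0.971 in the others (3.83, SE 0.24), and S100a8 had 3.6, 3.55 and 3.22 FPM against 0.15 to 0.896 (3.10, SE 0.44). Csf3r, the receptor for granulocyte colony-stimulating factor, had 2.55, 2.23 and 3.3 FPM against 0.57 to 1.54 (1.47, SE 0.30). The 6 markers summed to 14.6 to 18.6 FPM against 1.23 to 3.4. All 3 tested members were thus higher, at low levels, and the others were below the filter. Of those, Ly6g was at 0 counts in all 10 kidneys, Retnlg had 43, 31 and 19 counts in a8, a9 and a17 and 0 to 6 in the others, and Cxcr2 had 20, 8 and 10 against 0 to 7. In bulk RNA, more cells of a type and more RNA per cell cannot be told apart, and the part of these cells in the differences of Il1b and the chemokines was not tested.

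Other marker lists had few or no called members. All 6 tested adipocyte markers had a positive difference (median 1.38), but the groups overlapped, with sums of 81.6 to 91.5 FPM in the activated and 34 to 215 FPM in the other kidneys. The 7 macrophage markers summed to 158 to 174 FPM against 107 to 154 and the 4 smooth muscle markers to 106 to 128 against 64 to 104, and in both lists all tested members had a positive difference. In these lists Acta2 was the only gene called (0.65, SE 0.15). Of 10 endothelial markers 9 had a positive difference and none was called, with sums of 511 to 614 against 223 to 514 FPM, and of 9 proximal tubule markers 8 had a negative difference and none was called (median -0.13). The lymphocyte markers summed to 17 to 27.2 FPM in the activated and 7.77 to 26.5 FPM in the other kidneys. No member was called among markers of the thick limb, distal convoluted tubule, principal and intercalated cells, podocytes, fibroblasts, adipocytes, adrenal gland, skeletal muscle, red cells and urothelium, nor among male-biased and female-biased renal genes. The part of these shifts in the other differences was not tested.

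The genes called lower were 1.10% of all genes tested and mostly of low level. Genes of low level scatter more between libraries and reach the fold more easily. How far such scatter made up this set and its traits was not tested. Only 53% of the 166 were protein-coding, beside 82.3% of all genes tested and 82.9% of the 322 higher genes, and their median level was 1.99 FPM beside 16 FPM over all genes. Symbols of zinc finger genes (beginning with Zfp, Zscan, Zkscan, Zbtb, Zik or Rex) made up 13.3% of them and 2.6% of all genes tested. Ano3, a member of the anoctamin family, had 0.73, 0.0825 and 0.339 FPM in a8, a9 and a17 against 1.01 to 8.19 (-3.97, SE 0.69), and its exons overlap Muc15. It was followed by 1810017P11Rik (-2.13, SE 0.22) and Gm43190 (-2.05, SE 0.37), and then by the transcription factor genes Osr2 (-1.19, SE 0.20) and Hmx2 (-1.14, SE 0.25) and by Zfp661 (-1.04, SE 0.15). The other genes of the 12 largest with at least 5 FPM were Slc2a4rg-ps, Gm20400, 9330151L19Rik, AI480526, Tmem88b and Acrbp, with log2 differences of -1.16 to -0.94. The downward differences were therefore mostly small and in genes of low level.

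The genes called in either direction differed in their structure from the bulk of genes, as a description. The 49 immediate-early genes had a median span of 5162 bases and 3 exonic segments in GENCODE M21. The 322 other higher genes had 12129 bases and 5 segments, the 166 lower genes 8014.5 and 4, and all genes tested 18589 and 8. A short span with few segments was thus not particular to the higher genes. Median exonic lengths were 3311, 3401, 2717.5 and 3798 bases in the same order.

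The activation was seen in both genotypes, though with 2 kidneys in one and 1 in the other. The log2 difference of mean log2(FPM + 0.5) was 6.64 in EC-EGFR-KO and 7.12 in EC-EGFR-WT for Egr1, and 4.21 and 5.04 for Il1b. Of the 49 immediate-early genes 48 had a fold over 1.5 in both genotypes, with medians of 1.94 and 2.15. Of the 322 other higher genes 225 did so (medians 0.78 and 0.95), and of the 166 lower genes 74 (medians -0.64 and -0.72). Since the call asked all 3 libraries to lie on 1 side, the shared direction follows in part from the choice.

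**Figure D3:**
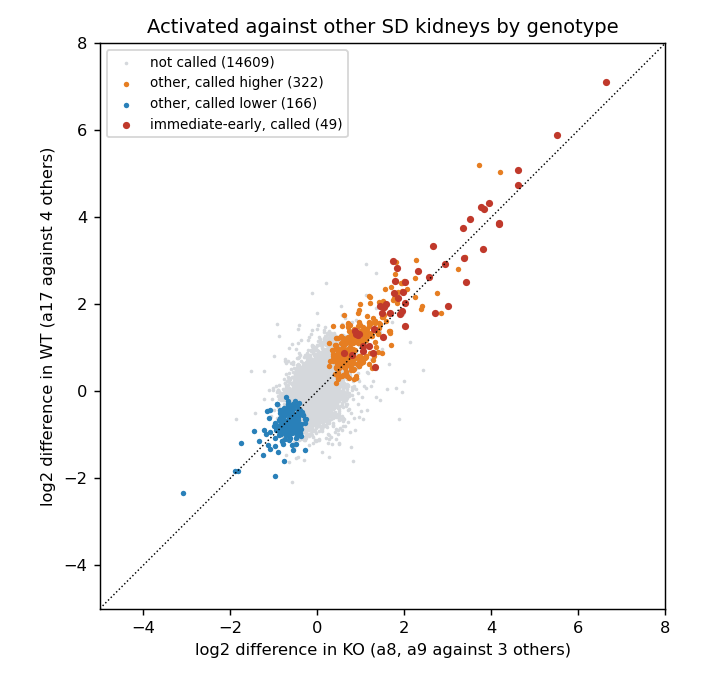
Log2 difference of mean log2(FPM + 0.5) between activated and other SD kidneys in EC-EGFR-KO (x axis, 2 against 3 libraries) and EC-EGFR-WT (y axis, 1 against 4), 1 point per gene tested, with the dotted line marking equality. The 49 called immediate-early genes in red lie near the line, with Egr1 farthest out at 6.64 and 7.12.

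The 3 kidneys were not alike in extent. Of the 49 immediate-early genes a9 was the highest in 25, a17 in 13 and a8 in 11, and a8 was the lowest of the 3 in 30. Over the 322 other higher genes the median log2 difference from the mean of the 7 was 0.70 in a8, 0.94 in a9 and 0.93 in a17. By contrast Egr1, Zfp36 and Gadd45g were highest in a8, with 822, 376 and 250 FPM, beside 598, 282 and 94.3 in a9.

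Whether the same genes follow Fos was then tested in libraries that the choice had not used. In 8 HFD kidneys (without a1 and a12, which are near-identical libraries with different genotype labels), the slope of each gene on log2 FPM of Fos was fitted with genotype as covariate. Fos ranged over 1.44 to 7.29 FPM there, far below the activated kidneys. With edgeR's quasi-likelihood test 1 of 15321 genes had an adjusted p under 0.05 (0.00653%), and it was Egr1, with a slope of 0.88 (SE 0.07, adjusted p = 0.000604). Without the 2 libraries farthest from the median of Fos, a2 and a11, the slope was nearly the same at 0.86 and the adjusted p was 0.335 with 6 libraries. Egr1 was called on leaving out any single library, with slopes of 0.81 to 0.93.

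The other members were not called in the HFD kidneys. Of 48 immediate-early members tested Egr1 alone was called, with a median slope of -0.01 over the 48. Of 311 other higher members 0 were called by edgeR's quasi-likelihood test (16 with a positive and 19 with a negative slope at an unadjusted p under 0.05), and of 166 lower members 0 (11 and 9). Over all 15321 genes 1478 reached that unadjusted p, 807 with a positive and 671 with a negative slope. The DESeq2 Wald test called 3 and the edgeR likelihood ratio test 3 of the other higher members. Il1b had a slope of 0.08 (SE 0.18) and Cxcl1 of -0.57 (SE 0.17, adjusted p = 0.478), at levels of at most 2.16 and 2.39 FPM. Over this range of Fos and with 8 libraries, no association of the other members was detectable by that test.

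In 18 aortas (without the near-identical R-1 and R-12), Fos ranged over 63.8 to 4140 FPM, and the slope was fitted with the 4 groups of genotype and diet as covariate. The same test called 30 of 15253 genes (0.197%), all with a positive slope. An unadjusted p below 0.05 was found for 948 genes. Of the 49 immediate-early members 18 were called (36.7%) and 46 had a positive slope, with a median of 0.36 beside -0.01 over all genes. The smallest p-values belonged to Fosb (slope 1.38, SE 0.08, adjusted p = 9.1e-08), Junb (0.81, SE 0.06, adjusted p = 6.6e-07), Egr1 (0.71, SE 0.05, adjusted p = 6.6e-07), Dusp1 (0.55, SE 0.04, adjusted p = 3.8e-06) and Zfp36 (0.60, SE 0.05, adjusted p = 5.2e-06). Fosb had 4.49 FPM in R-2, where Fos was lowest, and 2143 FPM in R-19, where Fos was highest. The 5 slopes in aortas kept an adjusted p under 0.05 without R-19. In the HFD kidneys Zfp36 had a slope of 0.01 (SE 0.09, adjusted p = 0.966), Junb of 0.26 (SE 0.10, adjusted p = 0.485) and Dusp1 of 0.30 (SE 0.13, adjusted p = 0.519), so that of these genes Egr1 alone was called in both organs. Without R-19 the genes called were 12 in all and the immediate-early members 11.

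Of 301 tested other higher members 5 were called in aortas (1.66%), namely Dusp6, Gdf15, Arl4d, Spry2 and Sgk1, of which Dusp6, Arl4d and Spry2 are named after their values were seen. Gdf15 had a slope of 0.59 (SE 0.09, adjusted p = 0.00596), with 1.37 to 14.2 FPM. Sgk1, a kinase regulated by glucocorticoids, had 0.46 (SE 0.08, adjusted p = 0.0175). Without R-19, the aorta with the highest Fos, 0 of the members were called by the same test, and Gdf15 had a slope of 0.43 (adjusted p = 0.222). There were 3 without R-9 and 2 without R-16. Il1b, with 0.117 to 3.1 FPM, had a slope of 0.20 (SE 0.16, adjusted p = 0.897), and Cxcl1 of 0.60 (SE 0.13, adjusted p = 0.0968). Of 120 tested lower members 0 were called by that test, with 17 negative slopes and no positive one among those whose unadjusted p fell below 0.05. Over all 15253 genes 437 slopes were negative and 511 positive at that unadjusted p. The DESeq2 Wald and edgeR likelihood ratio tests called 3 lower members each.

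**Figure D4:**
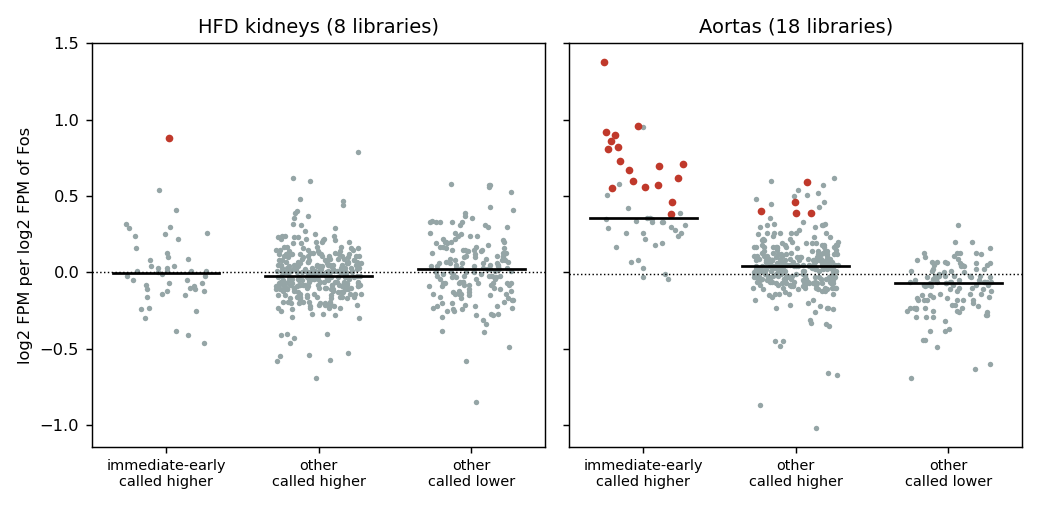
Slope of each member on log2 FPM of Fos (y axis, log2 FPM per log2 FPM) in 8 HFD kidneys and 18 aortas, by group of members, with called genes in red, the group's median as a bar and the median of all genes as a dotted line. In aortas the immediate-early members have a median of 0.36, the other higher members 0.04 and the lower members -0.07.

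The activated kidneys are also SD samples in the comparison of diets, HFD against SD in each genotype. In 1 fit of all 20 kidneys, genes with an adjusted p under 0.05, a fold over 1.5 and a group mean over 5 FPM numbered 347 of 15943 among the EC-EGFR-WT mice (2.18%) and 344 among the EC-EGFR-KO mice (2.16%). Without the 3 activated libraries 416 and 295 were called, of which 320 and 265 were shared with the fit of all kidneys. That is 92.2% of the first and 76.9% of the second list in EC-EGFR-WT, and 77% and 89.8% in EC-EGFR-KO. The fit without them is a description, since they were picked by Fos.

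The estimates for immediate-early genes depended on the activated libraries. Of the 60 in both fits, 57 had a negative log2 fold change in EC-EGFR-KO (median -1.11) and 52 in EC-EGFR-WT (median -0.55). Without the activated libraries 15 and 13 were negative, and the medians were 0.17 and 0.28. Fos had a log2 fold change of -3.73 (SE 1.52, adjusted p = 0.178) in EC-EGFR-KO with all kidneys and of 1.16 (SE 0.75) without the 3, and in EC-EGFR-WT of -2.25 (SE 1.44, adjusted p = 0.422) and 1.64 (SE 0.68). Since the 3 libraries were chosen for the highest Fos, leaving them out raises these estimates by construction, and the values are given as a description.

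**Figure D5:**
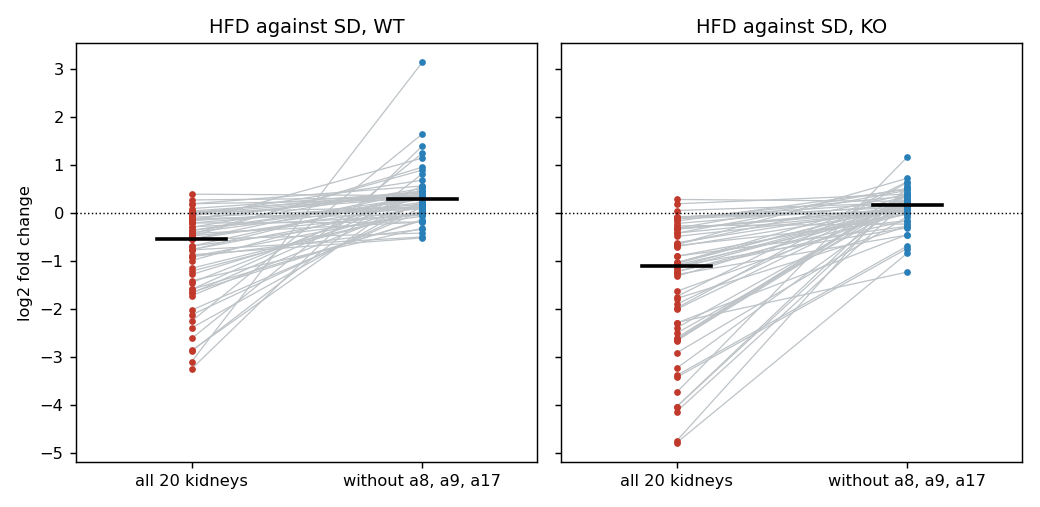
Log2 fold change of HFD against SD for 60 immediate-early genes, by genotype, with all 20 kidneys and without a8, a9 and a17, with lines joining the same gene and bars marking the medians. The medians are -0.55 and 0.28 in EC-EGFR-WT and -1.11 and 0.17 in EC-EGFR-KO.

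With all kidneys 2 immediate-early genes were called in EC-EGFR-KO and 0 in EC-EGFR-WT by edgeR's quasi-likelihood test. Gadd45g, a growth arrest gene, had 20.5 FPM under HFD and 99.2 under SD (log2 fold change -2.28, SE 0.65, adjusted p = 0.0455). Without the 3 activated libraries it was -1.23 (SE 0.27) and still called, as a description. Plk2, a polo-like kinase, had 10.5 and 22.4 FPM (-1.10, SE 0.30, adjusted p = 0.0349), and -0.31 (SE 0.14) without them, where it was not called. Neither call from the whole set held when any 1 of a1, a2, a3, a4, a5, a8 or a9 was left out, while the log2 fold changes stayed negative. Gadd45g was also no longer called without any 1 of a10 to a15 or a20, with an adjusted p of at most 0.0581. They lay near the value of the whole set except for Gadd45g without a8 (-1.56, adjusted p = 0.158) and Plk2 without a9 (-0.56, adjusted p = 0.0978). Without both a1 and a12 Gadd45g had -2.26 (adjusted p = 0.114) and Plk2 -1.09 (adjusted p = 0.0827).

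Of the 322 other higher members, 4 were called for diet in EC-EGFR-WT and 6 in EC-EGFR-KO with all kidneys. Over all genes tested 2.18% and 2.16% were called. The members were chosen for a split among the SD kidneys, which widens their spread there and makes a call for diet harder. Nothing is therefore read from these counts. Without the 3 libraries 19 and 8 members were called, beside 416 and 295 of 16299 genes. The members were chosen for their high values in the 3 libraries, so leaving those out lowers the SD mean of each by construction, and the estimates without them are a description. Dusp6, a phosphatase for ERK, was not called in either genotype with all kidneys. It had log2 fold changes of 0.87 (SE 0.13) in EC-EGFR-WT and 0.75 (SE 0.14) in EC-EGFR-KO without them, beside 0.45 (SE 0.34) and -0.00 (SE 0.34) with them. Its mean under SD was 53.4 and 67.9 FPM with the activated kidneys and 39.7 and 40.5 FPM without them.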

How the data were processed

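The authors isolated total RNA, enriched poly(A) RNA, sequenced the libraries and deposited whole-number counts per gene. Total counts were 19643033 to 48833447 in kidneys and 17520161 to 36452741 in aortas. Per the labels, mapping used HISAT2 2.1.0 on mm10 and counting featureCounts, while the methods name TopHat2. The strand setting is not given in the sources used here.

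The members and gene lists were chosen with earlier results of these data known. Groups came from the labels, and p-values measure the spread between libraries. Counts were analysed in edgeR 4.0.16 (R 4.3.3) with TMM, filterByExpr and the robust quasi-likelihood fit, with Benjamini-Hochberg adjustment over all genes. For the 3 kidneys against 7 (~ genotype + activation) only log2 differences with SE were taken. Slopes on Fos were tested in HFD kidneys and aortas, and diets in 1 fit of 4 groups. Named genes were Fos, Egr1, called immediate-early genes, the 12 largest other differences each way with at least 5 FPM, up to 4 called members per list, and in the tests the called genes among these with the 5 smallest p. Alternatives were DESeq2 1.42.0, other scalings, filters, calls, covariates and leaving out libraries. Scripts were tested on simulated data. Libraries a1 and a12, and R-1 and R-12, agreed more closely than sampling noise allows (chi-square over genes with a median of 0.0246 and 0.0257, next pair 1.75) and were left out of the slopes. In the fit of diets they were kept, since they carry different group labels. Of the listed genes 22 are at 0 counts in every kidney and could not be tested. They include Hspa8, Cdh5 and Tpm1, so a 0 in every kidney is not read as absent expression. Gene positions and exon overlaps are from GENCODE M21. RefSeq promoter windows were matched by symbol. Some genes that these rules name are not reported here.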

Additional observations from a re-analysis of the deposited data

Results flagged for a closer look

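Dixon's ratio was computed for 6 measures in each of the 4 kidney groups, 24 in all, of which 9 exceeded the 95% critical value. The measures include Fos, which chose the libraries, and genes known to go with it. The 9 are therefore a description and are not set against the rate of 1 in 20 given by chance. In EC-EGFR-WT SD, replicate a17 stood apart in Fos (75.3 CPM, others 0.319 to 1.85), Egr1 (740 CPM, others 1.56 to 10.4), Il1b (49.1 CPM, others 0.606 to 1.28), Cxcl1 (51.8 CPM, others 0.576 to 1.44) and the summed neutrophil markers (14.6 CPM, others 1.21 to 3.55). These flags restate that a17 was chosen by Fos. In EC-EGFR-KO SD, where 2 of 5 kidneys were activated, a9 stood apart in Il1b (66.1 CPM, others 0.946 to 11.6).

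Total counts stood apart in a16 of EC-EGFR-WT SD (31369285, others 23532144 to 25669396) and in both near-identical libraries, a1 of EC-EGFR-KO HFD (48788716, others 19643033 to 22322767) and a12 of EC-EGFR-WT HFD (48833447, others 23354297 to 24906014).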

How the results depend on the processing

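No paired analysis was possible because each library has its own name and no replicate number is shared between groups. For the 3 kidneys against 7, the other genes called higher and lower numbered 322 and 166, with 211 and 43 at a mean of 5 FPM, 160 and 59 at a fold over 2, and 703 and 574 where groups may overlap, and without a filter 258 were lower. Leaving out 1 library gave 329 to 544 higher (544 without a8) and 181 to 413 lower (413 without a8), as fewer libraries must be separated, and 49 to 52 immediate-early genes. The 3 kidneys with the highest Egr1 were the same 3 as by Fos.

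In HFD kidneys the 1 call became 56 with the DESeq2 Wald test, 52 with the likelihood ratio test, 31 without a filter, 1406 with both near-identical libraries kept, and 0 with the mean of other immediate-early genes in place of Fos or without the 2 libraries farthest from its median. Immediate-early members called were 1, then 2, 2, 5, 0 and 0 for the DESeq2 Wald test, the likelihood ratio test, both kept, the other mean and the 2 left out. Other higher members were 3, 3 and 13 with the first 3 of these, and lower members 8 with both kept. Leaving out 1 library gave 1 to 4 genes.

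In aortas the 30 calls became 74 with the DESeq2 Wald test, 72 with the likelihood ratio test, 81 without the group term and 14 without the 2 libraries farthest from the median of Fos. The 18 immediate-early members became 28, 30 and 32 with the first 3. The 5 other higher members became 10, 11 and 13, then 8 with the mean of other immediate-early genes and 0 without the 2 libraries, and lower members 3, 3, 1 and 2 with the first 4. Leaving out 1 aorta gave 12 to 37 genes, 11 to 21 immediate-early members, 0 to 7 other higher members and 0 to 1 lower members, the lowest of the first 3 without R-19.

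For the diets, an adjusted p alone gave 1069 genes in EC-EGFR-WT and 1011 in EC-EGFR-KO. Immediate-early genes called in EC-EGFR-KO were 2, but 1 without the activated libraries, 0 without a1 and a12, 0 without a filter and 18 with the DESeq2 Wald test, and 0 to 17 on leaving out 1 library (17 without a17). In EC-EGFR-WT 1 was called without the activated libraries. The causes were not tested.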
